A study of Mus musculus with 8 samples.

Results

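The 8 genes *Cblb*, *Slc15a5*, *Exph5*, *1700001O22Rik*, *BC048679*, *Odf3l2*, *Efcab6* and *0610040J01Rik*, of 55401 genes in the table, were chosen because each was detected in all WT muscles and was at or near 0, or many-fold lower with little spread, in all *mdx5cv* muscles. Their expression was measured by bulk RNA-seq of whole tibialis anterior (TA) muscles of male mice at 6 mo of age, 4 WT and 4 *mdx5cv*, and the labels put both groups on the C57/Bl6 strain. The *mdx5cv* mouse is a model of Duchenne muscular dystrophy (DMD) that carries a chemically induced mutation of *Dmd*, the X-linked gene of dystrophin, in every tissue and from birth. The methods describe the *mdx5cv* mice as a line obtained from a repository, and whether the WT mice were their littermates was not given in the sources used here, so the *Dmd* mutation cannot be told apart from any other difference between the lines. A whole TA muscle holds fibers together with immune, nerve, vessel and fat cells, and in such bulk samples fewer cells of a type and less RNA per cell cannot be told apart.

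Values are normalized counts, which are the reads of a gene divided by a size factor for the muscle. The libraries held between 13175524 and 14921057 reads in genes, so 1 read stood for a normalized count of about 0.799 to 0.943 in an *mdx5cv* muscle. *Dmd* itself was still read in all *mdx5cv* muscles, at 3964 ± 388 against 6954 ± 857 in WT (SD, n = 4 per group), a log2 fold change of -0.81 (limma adjusted p = 0.000177). In the limma fit over the 13677 genes whose normalized counts averaged 10 or more, a gene was called when its adjusted p was under 0.05 and its absolute log2 fold change was at least 1. By that rule 3.27% of the genes tested were called lower and 10.3% were called higher in *mdx5cv* muscle. All 8 genes were in the fit and were called lower, and in all 8 every *mdx5cv* value lay below every WT value, as it did for 19.8% of the genes tested. Because the 8 genes were chosen from this contrast, nothing is read from those counts, and their values are given below as a description with no test.

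The label of near silence held for 6 of the 8 genes. *Cblb* had no read in any *mdx5cv* muscle, and *Slc15a5*, *Exph5*, *1700001O22Rik*, *BC048679* and *Odf3l2* had between 3 and 5 reads over the 4 *mdx5cv* muscles together, which left them at 2.11% of the WT level or less. Here and below, folds and such shares compare the pooled reads of each group divided by its summed size factors, so they differ a little from the ratio of the group means. *0610040J01Rik* kept 5.67% of its WT level. *Efcab6* kept 10.4% and was read in all *mdx5cv* muscles, so it was lower but not silent. Summed over the 8 genes, the normalized count was between 905 and 1032 in each WT muscle and between 28.8 and 34.0 in each *mdx5cv* muscle.

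The 8 genes do not form a known pathway. *Cblb* encodes Cbl-b, a RING-type E3 ubiquitin ligase that tags activated receptors and their signaling partners for degradation or restraint; it is best known as a brake on T-cell activation, and in skeletal muscle it has been linked to loss of insulin receptor substrate 1 in unloaded muscle. *Slc15a5* belongs to the proton-coupled oligopeptide transporter family, whose members carry dipeptides, tripeptides and histidine across membranes. *Exph5* encodes exophilin 5, an effector of Rab27, the small GTPase that ties secretory vesicles and lysosome-related organelles to the cytoskeleton and the plasma membrane, and its loss in the skin causes fragility of keratinocytes. *Odf3l2* is a relative of the outer dense fiber genes of the sperm tail. *Efcab6* encodes an EF-hand protein known to bind DJ-1, the product of *Park7*. *1700001O22Rik*, *BC048679* and *0610040J01Rik* carry clone names.

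The RefSeq promoter windows of the GRCm38.p6 build, which run from 250 bases before to 50 bases after an annotated start, held 7 windows for 6 of the genes. *Odf3l2* and *Efcab6* had no entry. The windows of the 3 genes with the widest separation between the groups are shown, 5′ to 3′ on the strand of the gene, because these genes had almost no reads in *mdx5cv* muscle. Reads were counted per gene, so which annotated start was used was not measured. Capitals mark a CCAAT box (CCAAT) or a GC box (GGGCGG) on either strand. That of *Cblb* lies at chr16:52031299-52031598 on the plus strand, that of *Slc15a5* at chr6:138079867-138080166 on the minus strand and that of *Exph5* at chr9:53301420-53301719 on the plus strand.
Cblb: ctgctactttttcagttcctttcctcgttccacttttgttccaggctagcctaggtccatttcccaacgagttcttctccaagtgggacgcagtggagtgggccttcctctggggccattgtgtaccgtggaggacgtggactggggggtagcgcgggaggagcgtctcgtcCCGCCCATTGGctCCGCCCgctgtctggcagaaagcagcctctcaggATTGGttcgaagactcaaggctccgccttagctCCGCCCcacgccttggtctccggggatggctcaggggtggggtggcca
Slc15a5: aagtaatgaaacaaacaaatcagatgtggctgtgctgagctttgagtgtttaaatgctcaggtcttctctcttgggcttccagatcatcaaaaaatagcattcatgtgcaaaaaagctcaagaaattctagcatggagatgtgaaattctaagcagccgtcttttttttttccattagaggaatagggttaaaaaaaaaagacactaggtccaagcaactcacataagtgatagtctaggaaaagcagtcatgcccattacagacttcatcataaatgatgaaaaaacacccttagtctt
Exph5: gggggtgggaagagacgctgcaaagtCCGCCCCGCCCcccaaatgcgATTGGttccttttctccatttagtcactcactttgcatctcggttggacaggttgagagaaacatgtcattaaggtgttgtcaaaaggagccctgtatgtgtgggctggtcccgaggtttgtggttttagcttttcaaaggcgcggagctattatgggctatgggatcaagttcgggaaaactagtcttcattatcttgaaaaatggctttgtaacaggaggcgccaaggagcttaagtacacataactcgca

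These starts were unlike in their bases. The window of *Cblb* had a GC content of 61.3% and 17 CpG dinucleotides, with 2 CCAAT boxes and 3 GC boxes. That of *Exph5* had a GC content of 48.7% and 11 CpG dinucleotides, with 1 CCAAT box and 2 GC boxes that overlap each other, and that of *Slc15a5* had a GC content of 36.7%, 1 CpG dinucleotide and no match to any motif searched. The medians over all 32851 windows were 52.7% and 7. Of the 7 windows, 4 held a CCAAT box and 4 held a GC box, against 37.4% and 35.7% of all windows, and none of the 7 held TATAAA or the E-box CAGCTG, against 13.6% and 16.3%. A match is a description of the letters and not of a binding site.

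*Cblb* (ENSMUSG00000022637.11, chromosome 16, 52031225 to 52208048, plus strand, GRCm38) was the most highly counted of the 8 genes in WT muscle. Its normalized count was 276, 363, 349 and 349 in WT replicates 1 to 4 and 0 in each *mdx5cv* muscle. All WT muscles were far above 0 and WT replicate 1 was the lowest of them, while no *mdx5cv* muscle gave a single read. In reads this was 241, 331, 316 and 329 in the WT muscles, 1217 in all, against none. The WT mean was 334 ± 39.3 (SD, n = 4). With 3 reads put in place of 0 over the 4 *mdx5cv* muscles together, *Cblb* was 503-fold lower. The exact 95% interval from the read counts, with no read in *mdx5cv*, began at 408-fold.

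**Figure D1:**
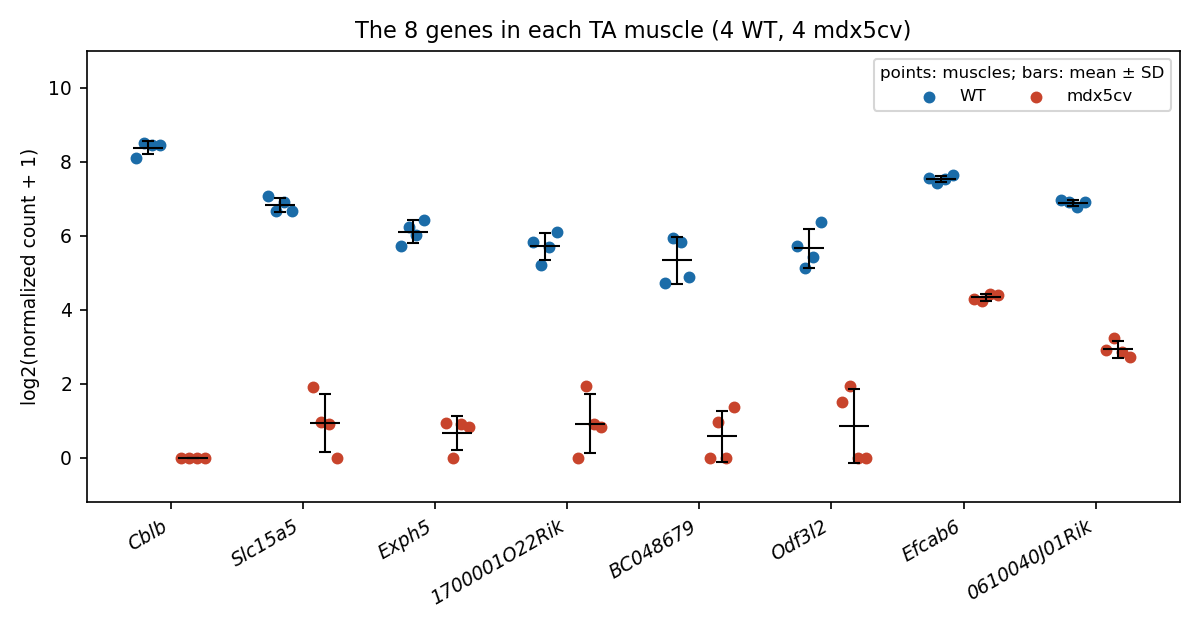
Each point is 1 TA muscle, with the gene on the horizontal axis and log2(normalized count + 1) on the vertical axis, and the bars give the mean and SD of 4 WT (blue) and 4 *mdx5cv* (red) muscles. *Cblb* lies at 0 in all *mdx5cv* muscles, 5 genes lie below 2, and *Efcab6* and *0610040J01Rik* lie above 2.5 in every *mdx5cv* muscle.

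*Slc15a5* (ENSMUSG00000044378.12, chromosome 6, 137983586 to 138079916, minus strand) had a normalized count of 133, 101, 119 and 102 in WT replicates 1 to 4 and of 2.78, 0.943, 0.90 and 0 in *mdx5cv* replicates 1 to 4. The groups were far apart, and 3 of the 5 *mdx5cv* reads came from replicate 1. The WT mean was 114 ± 15.4 and the *mdx5cv* mean 1.16 ± 1.17 (SD, n = 4). From the pooled reads the gene was 102-fold lower (95% exact interval from the read counts 43.4 to 316). Such intervals cover counting error only.

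*Exph5* (ENSMUSG00000034584.3, chromosome 9, 53301670 to 53377514, plus strand) had a normalized count of 51.6, 74.6, 64.1 and 85.8 in the WT muscles and of 0.926, 0, 0.90 and 0.799 in the *mdx5cv* muscles. The *mdx5cv* values above 0 are single reads, so only the WT values carry an order among muscles, with replicate 4 the highest. The WT mean was 69.0 ± 14.6 and the *mdx5cv* mean 0.657 ± 0.441 (SD, n = 4), and the pooled reads gave a 104-fold lower level with a wide counting interval of 35.2 to 508. Of the stretches of 50 bases in its transcripts, 1.54% also occurred in transcripts of other genes, while for the other 7 genes none did. No exon base of any of the 8 genes was shared with another annotated gene.

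The sperm-tail relative *Odf3l2* (ENSMUSG00000035963.8, chromosome 10, 79639526 to 79645738, minus strand) had a normalized count of 51.6, 34.0, 42.0 and 81.6 in the WT muscles and of 1.85, 2.83, 0 and 0 in the *mdx5cv* muscles. WT replicate 4 stood above the other WT muscles, and only *mdx5cv* replicates 1 and 2 gave any read. Means were 52.3 ± 20.8 (WT) and 1.17 ± 1.41 (*mdx5cv*, SD, n = 4 each), and from the pooled reads the level was 47.3-fold lower (19.9 to 147).

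*Efcab6* (ENSMUSG00000022441.17, chromosome 15, 83866712 to 84065379, minus strand), the EF-hand gene, had a normalized count of 187, 171, 184 and 199 in the WT muscles and of 18.5, 17.9, 20.7 and 19.98 in the *mdx5cv* muscles. Its values were tight in both groups and the groups were far apart. On average WT muscles had 185 ± 11.5 and *mdx5cv* muscles 19.3 ± 1.28 (SD, n = 4), and the pooled reads gave a 9.59-fold lower level (7.66 to 12.1) that rests on 87 *mdx5cv* reads. It was the least reduced of the 8 genes and the only one to reach 10 normalized counts in all 8 muscles.

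Of the genes with clone names, *0610040J01Rik* (ENSMUSG00000060512.7, chromosome 5, 63812363 to 63899625, plus strand) had a normalized count of 125, 118, 108 and 119 in the WT muscles and of 6.49, 8.49, 6.30 and 5.59 in the *mdx5cv* muscles. As for *Efcab6*, the values of each group lay close together and every *mdx5cv* muscle kept some reads. With a WT mean of 118 ± 6.85 and an *mdx5cv* mean of 6.72 ± 1.24 (SD, n = 4), the gene was 17.6-fold lower from the pooled reads (12.2 to 26.5).

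*1700001O22Rik* (ENSMUSG00000044320.14, chromosome 2, 30794769 to 30803661, minus strand) had a normalized count of 56.2, 36.2, 50.9 and 67.8 in the WT muscles and of 0, 2.83, 0.90 and 0.799 in the *mdx5cv* muscles. WT replicate 2 was the lowest of its group and *mdx5cv* replicate 2 the highest of its own, with 3 of the 5 *mdx5cv* reads. The WT mean was 52.8 ± 13.1 and the *mdx5cv* mean 1.13 ± 1.20 (SD, n = 4), and the pooled reads gave a 47.6-fold lower level (20.04 to 148).

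*BC048679* (ENSMUSG00000061877.13, chromosome 7, 81494275 to 81498281, minus strand) had a normalized count of 25.2, 60.3, 56.4 and 28.6 in the WT muscles and of 0, 0.943, 0 and 1.60 in the *mdx5cv* muscles. WT replicates 1 and 4 were low and replicates 2 and 3 were high, with nothing in between, yet the lowest of them was far above every *mdx5cv* muscle. The WT mean was 42.6 ± 18.3 and the *mdx5cv* mean 0.635 ± 0.781 (SD, n = 4), and the pooled reads gave a 64.02-fold lower level (21.5 to 314). It is a short gene, with 640 exon bases.

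The WT muscles were not equally even across the 8 genes. The coefficient of variation among WT muscles was 42.9% for *BC048679* and 39.8% for *Odf3l2*, where counting error alone gives 16.1% and 14.5%. *1700001O22Rik* and *Exph5* varied by 24.8% and 21.2%, *Slc15a5* by 13.5% and *Cblb* by 11.8%, the latter also above its counting error of 5.73%. *Efcab6* and *0610040J01Rik* varied by 6.22% and 5.83%, less than their counting errors of 7.71% and 9.68%. The 2 genes with reads in all 4 *mdx5cv* muscles were also the 2 with the smallest spread in WT. Little spread was part of how the 8 genes were chosen, so nothing is read from this. No WT muscle was lowest throughout: *Cblb*, *Exph5* and *BC048679* were lowest in replicate 1, *1700001O22Rik*, *Odf3l2*, *Slc15a5* and *Efcab6* in replicate 2 and *0610040J01Rik* in replicate 3.

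Levels can be compared between genes only per length. Per kb of exon, the WT level was 66.6 ± 28.6 for *BC048679*, 48.9 ± 2.85 for *0610040J01Rik*, 41.9 ± 16.7 for *Odf3l2*, 36.8 ± 4.98 for *Slc15a5*, 31.9 ± 3.75 for *Cblb*, 28.9 ± 1.80 for *Efcab6*, 18.9 ± 4.70 for *1700001O22Rik* and 6.56 ± 1.39 for *Exph5* (SD, n = 4). The ranges of neighbours in this order overlapped from *BC048679* down to *Efcab6*. *1700001O22Rik* lay below *Efcab6* and *Exph5* below *1700001O22Rik*, with no overlap. The median of the genes tested was 27.3 per kb, so in WT muscle most of the 8 genes were of middling level, with *Exph5* at percentile 16.8 and *BC048679* at percentile 73.04 of the genes tested. In *mdx5cv* muscle the highest levels per kb were 3.01 ± 0.200 for *Efcab6* and 2.80 ± 0.517 for *0610040J01Rik*.

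How far the 8 genes stood apart was described by the gap, which is the lowest WT value minus the highest *mdx5cv* value on log2(normalized count + 1). Of 11598 genes with a WT mean of at least 20, 2646 had a gap above 0. *Cblb* ranked 1 with a gap of 8.11, *Exph5* ranked 2 at 4.77 and *Slc15a5* ranked 3 at 4.75. Of the other 5, *0610040J01Rik* ranked 8 (3.53), *BC048679* ranked 10 (3.33), *1700001O22Rik* ranked 11 (3.28), *Odf3l2* ranked 13 (3.19) and *Efcab6* ranked 15 (2.99). In the opposite direction, with the lowest *mdx5cv* value above the highest WT value, 43 of 12206 genes ranked in the same way had a gap at least as wide as that of *Efcab6*.

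**Figure D2:**
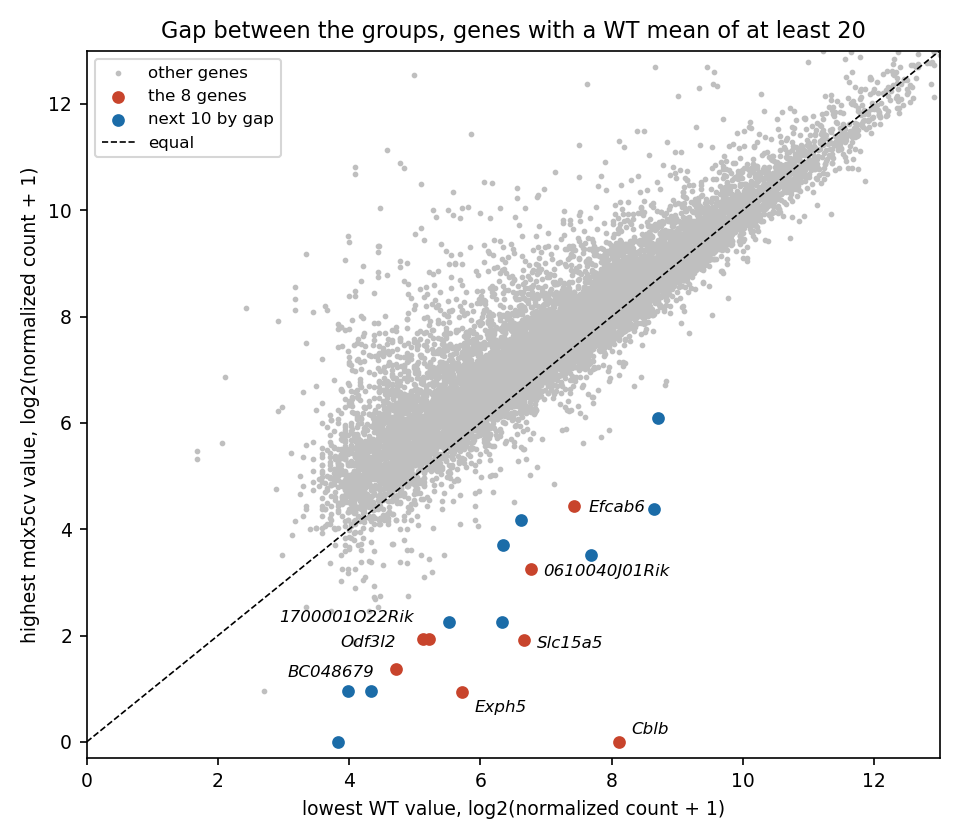
Each point is a gene with a WT mean normalized count of at least 20, with its lowest WT value on the horizontal axis and its highest *mdx5cv* value on the vertical axis, both as log2(normalized count + 1), and genes beyond the axes are not drawn. The 8 genes (red) lie below the line of equal values by 2.99 to 8.11, *Cblb* the farthest, among the next 10 genes by gap (blue).

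The list of 8 was not complete as a list of wide gaps, since 7 other genes lay at or above the gap of *Efcab6*. These were *Ces1d* (rank 4), a carboxylesterase; *Ppp1r1a* (rank 5), the protein phosphatase inhibitor; *Dach2* (rank 6), a transcription cofactor on the X chromosome; *Gm42047* (rank 7); *Sp110* (rank 9), a nuclear body protein; *Cdh4* (rank 12), a cadherin; and *Gm45909* (rank 14). *Ces1d* went from 532 ± 187 in WT to 12.6 ± 5.94 in *mdx5cv*, with WT muscles from 400.0 to 808. *Gm42047*, at 22.8 ± 6.71 in WT, was, like *Cblb*, without a read in any *mdx5cv* muscle. *Gm45909* (25.9 ± 13.3 to 0.661 ± 0.445) lies inside the gene body of *Ces1d* on chromosome 8 and on its strand, so its reads may not be separate from those of *Ces1d*. Just outside the smallest gap of the 8 came *Tmem132b* at 2.64, *Dusp26* at 2.62 and *Bdh1* at 2.45, and just inside it were *Gm45909* at 3.03 and *Odf3l2* at 3.19.

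The 8 genes lie on 8 different chromosomes, none of them the X chromosome that carries *Dmd*. The genes around them, which the choice did not use, were therefore tested in the same fit. Within 500 kb of the 8 genes, 95 of 204 genes passed the filter on low values. Of these, 10 (10.5%) were called higher and 3 (3.16%) lower, against 10.3% and 3.27% of all genes tested, and their median log2 fold change was -0.06 against 0.00 over all genes. In this window the neighbours as a group thus differed in share and in median by little from the whole table. All 3 genes called lower lay within 250 kb, where 3 were called higher, and the shares in that narrower window are not given here.

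**Figure D3:**
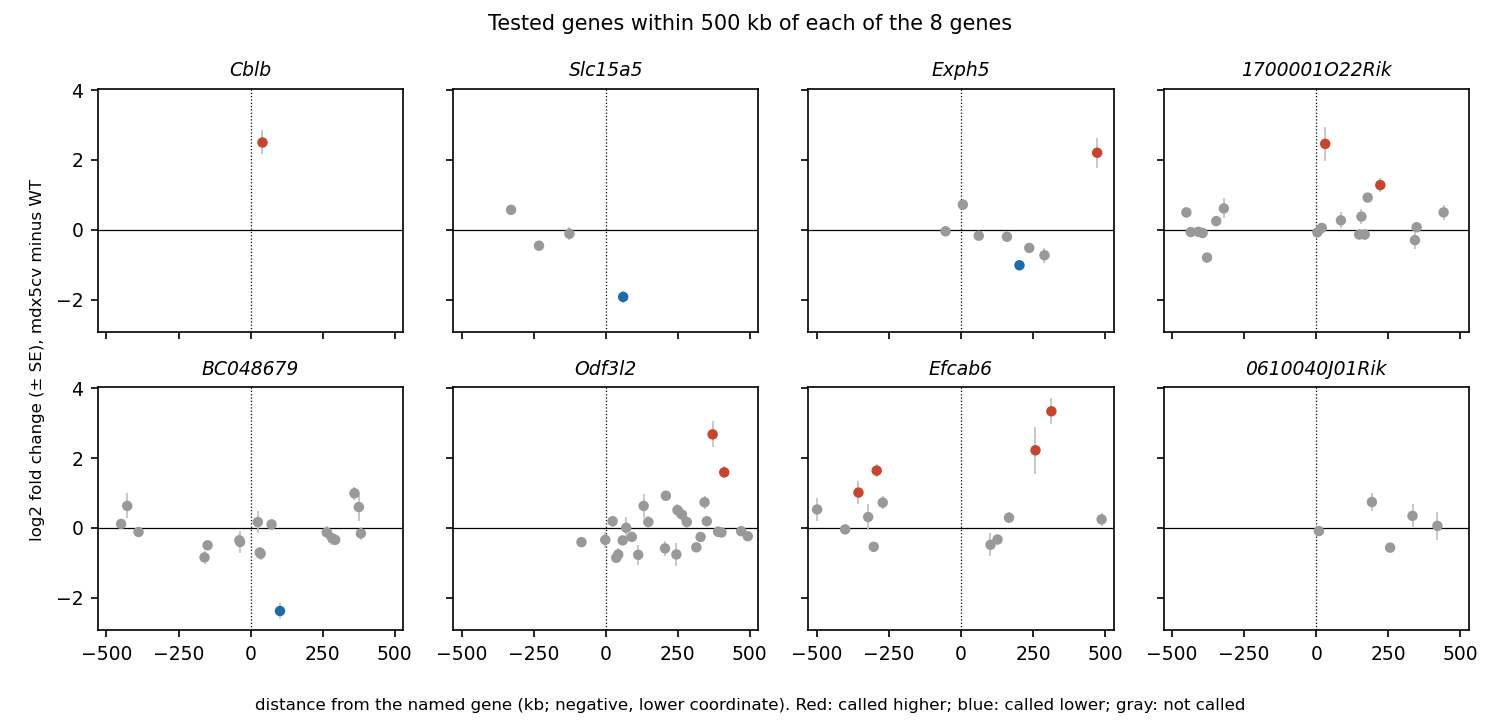
Each panel shows the tested genes within 500 kb of 1 of the 8 genes, with distance from that gene in kb on the horizontal axis and the log2 fold change (*mdx5cv* minus WT, bars SE) on the vertical axis. Called genes, in red (higher) and blue (lower), are scattered among gray genes that were not called, and *Cblb* has a single tested neighbour.

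*Cblb* stands in a gene-poor stretch. Its only tested neighbour, 40.9 kb away, was *Alcam*, an adhesion molecule of the immunoglobulin family, which had a normalized count of 17.2, 17.6, 11.1 and 14.8 in the WT muscles and of 121, 45.3, 72.04 and 164 in the *mdx5cv* muscles. Every *mdx5cv* muscle was above every WT muscle, the opposite direction to *Cblb*, and the log2 fold change was 2.51 ± 0.34 (SE, limma adjusted p = 8.57e-05). On the other side the nearest tested gene was *Dubr*, a noncoding RNA 1298 kb away, at 61.3 ± 9.64 in WT and 69.0 ± 10.5 in *mdx5cv* (limma adjusted p = 0.463).

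Next to *Slc15a5*, the microsomal glutathione transferase *Mgst1* fell too. It lies 60.4 kb away and had a normalized count of 296, 414, 306 and 209 in the WT muscles and of 76.9, 74.5, 71.1 and 88.7 in the *mdx5cv* muscles, with no overlap. Its log2 fold change was -1.93 ± 0.18 (SE, limma adjusted p = 5.91e-06), a far smaller change than the difference of -5.88 of *Slc15a5* on the same log2 scale. *Dera*, 126 kb away on the other side, was at 63.3 ± 12.1 and 58.2 ± 8.68 (adjusted p = 0.645).

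The other neighbours called lower were *Homer2* and *Acat1*. *Homer2*, a synaptic and muscle scaffold protein 102 kb from *BC048679*, fell from 357 ± 5.24 in WT to 73.1 ± 32.8 in *mdx5cv*, a log2 fold change of -2.38 (limma adjusted p = 9.96e-06). *Acat1*, a mitochondrial thiolase of ketone body metabolism 203 kb from *Exph5*, fell from 2194 ± 495 to 1068 ± 106, a log2 fold change of -1.02 (adjusted p = 0.000126). The call of *Acat1* stood just past the fold threshold and was lost with equal library totals, where the log2 fold change was -0.66, and without WT replicate 2, *mdx5cv* replicate 1 or *mdx5cv* replicate 4.

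Around *Efcab6*, 4 of 13 tested neighbours (30.8%) were called higher and none lower, against 10.3% and 3.27% of all genes tested. *Shisal1* (log2 fold change 3.34) and *Tspo*, the translocator protein of the outer mitochondrial membrane (1.64), were called in every alternative in which they were tested. *Parvg*, an adhesion protein of blood cells (2.23), lost its call without *mdx5cv* replicate 2 or 4, and *Ttll1*, a tubulin-modifying enzyme (1.02), lost it in 7 alternatives. The nearest tested genes on the sides of *Efcab6* were *Ttll12* (log2 fold change 0.73, adjusted p = 0.00625, under the fold threshold) and *Pnpla3* (-0.48, adjusted p = 0.263).

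Near *Odf3l2*, 2 of 27 tested neighbours (7.41%) were called higher, *Arhgap45* (2.68) and *Sbno2* (1.59), beside 10.3% of all genes tested. *Shc2*, only 1.61 kb from *Odf3l2*, was at 50.9 ± 12.9 in WT and 39.6 ± 7.93 in *mdx5cv* (adjusted p = 0.245). *Tpgs1*, on the other side, had an adjusted p of 0.343. Near *1700001O22Rik*, 2 of 19 (10.5%) were called higher, the homeobox gene *Prrx2* (2.46) and *Fnbp1* (1.28). *Ntmt1*, 4.17 kb from *1700001O22Rik*, was at 78.4 ± 15.4 and 73.7 ± 7.49 (adjusted p = 0.760), and *Ier5l* on the other side was not called (adjusted p = 0.105).

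The muscle regulator *Sln*, sarcolipin, 473 kb from *Exph5*, was called higher (log2 fold change 2.21, adjusted p = 0.00116). The genes next to *Exph5* were *Poglut3*, at 6.51 kb, with a log2 fold change of 0.72 (adjusted p = 0.00350, under the fold threshold), and *Ddx10* at -0.04 (adjusted p = 0.806). None of the 5 tested neighbours of *0610040J01Rik* was called. *Rell1*, 9.27 kb from *0610040J01Rik*, was at 109 ± 17.7 and 102 ± 11.7 (adjusted p = 0.679), and *Arap2* on the other side had an adjusted p of 0.267. Next to *BC048679*, *Cpeb1os1* and *2900076A07Rik* had adjusted p values of 0.320 and 0.703.

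Relatives and partners of the 8 genes were then counted in 6 lists, with the 8 genes left out. Of 119 genes matched, 62 were tested, 13 (20.97%) were called higher and 1 (1.61%) was called lower, against 10.3% and 3.27% of all genes tested. Their median log2 fold change was 0.22, against 0.00 over all genes. In no list was more than 1 gene called lower.

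**Figure D4:**
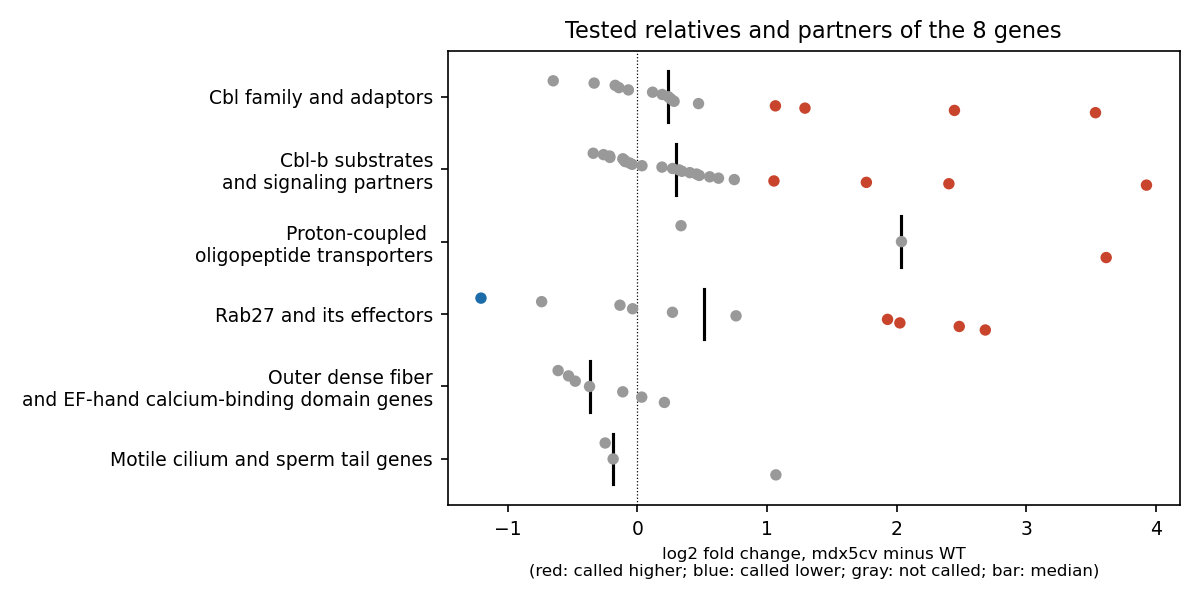
Each point is a tested gene of the list named on the vertical axis, with its log2 fold change (*mdx5cv* minus WT) on the horizontal axis, and the bar is the median of the list. Genes called higher (red) are in the lists around *Cblb*, *Slc15a5* and *Exph5*, and *Myrip* is the 1 gene called lower (blue).

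The Cbl ligases and their adaptors had 4 of 15 tested genes called higher and none lower, beside 10.3% and 3.27% of all genes tested. The median log2 fold change of this list was 0.24. *Cbl*, the closest relative of *Cblb*, had a normalized count of 241, 196, 188 and 274 in the WT muscles and of 461, 422, 387 and 626 in the *mdx5cv* muscles. The groups did not overlap, and the log2 fold change was 1.07 ± 0.16 (SE, limma adjusted p = 0.000232), a call that was lost without WT replicate 3 or *mdx5cv* replicate 4. *Sla*, a Src-like adaptor of blood cells, rose from 6.31 ± 2.35 to 86.8 ± 43.8 (log2 fold change 3.54), and the phosphatase *Ubash3b* (2.45) and the adaptor *Sh2b2* (1.29) rose too.

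Among the substrates and signaling partners of Cbl-b, 4 of 24 tested genes were called higher and none lower, beside 10.3% and 3.27% of all genes tested. The median of this list was 0.30. The genes called were *Vav1* (log2 fold change 3.93), a guanine nucleotide exchange factor of blood cells, the kinase *Syk* (2.40), the phospholipase *Plcg2* (1.77) and *Vav2* (1.05), whose call was lost with a pseudocount of 10 and without WT replicate 1 or *mdx5cv* replicate 4. *Irs1*, insulin receptor substrate 1, was at 2131 ± 323 in WT and 1992 ± 272 in *mdx5cv* (log2 fold change -0.09, adjusted p = 0.590). *Insr* (-0.21), *Prkcq* (-0.11) and *Nedd4* (-0.06) were not called either.

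Markers of macrophages were counted beside these lists. Their summed normalized count was 397 to 619 in the WT group and 1514 to 3642 in the *mdx5cv* group. Of the 8 markers, 7 were called higher and *Cd163* was called lower, beside 10.3% and 3.27% of all genes tested. *Sla*, *Vav1*, *Syk* and *Plcg2* are known from blood cells, and the part of macrophages in their values was not tested. T-cell markers summed to between 26.5 and 53.9 in WT and between 49.1 and 68.7 in *mdx5cv* muscles, and B-cell markers to between 5.53 and 23.03 and between 5.40 and 18.4. Of these 8 T-cell and 6 B-cell markers only *Cd247* passed the filter on low values, at 28.9 ± 12.4 in WT and 15.02 ± 6.42 in *mdx5cv* (limma adjusted p = 0.0660). *Cd247* does not stand for its list, since its mean was lower in *mdx5cv* while the T-cell sum, which includes *Cd247*, reached higher. The ranges of that sum overlapped between the groups, and the other T-cell markers are not given singly. The part of lymphocytes in the values of *Cblb* was not tested.

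Of the oligopeptide transporters related to *Slc15a5*, 3 were tested. *Slc15a3*, the lysosomal histidine and peptide transporter, rose from 4.38 ± 1.41 in WT to 68.9 ± 34.7 in *mdx5cv* (log2 fold change 3.62, limma adjusted p = 6.29e-06), in the direction opposite to *Slc15a5*. *Slc15a4* was at 140.1 ± 13.1 and 178 ± 26.4 (adjusted p = 0.0692). *Slc15a2* was not called (adjusted p = 0.112), but it was called in 4 alternatives, among them equal library totals (adjusted p = 0.0455) and without WT replicate 1 (0.00415) or *mdx5cv* replicate 4 (0.0335).

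Around *Exph5*, the Rab27 list had 4 of 10 tested genes called higher and 1 lower, beside 10.3% and 3.27% of all genes tested, with a median of 0.52. *Myo5a*, the myosin that moves Rab27 vesicles, rose from 188 ± 28.2 to 736 ± 209 (log2 fold change 1.93, limma adjusted p = 5.94e-06). *Rab27b* (2.48) and the effectors *Unc13d* (2.68) and *Sytl2* (2.03) were called higher, while *Rab27a* was at 14.8 ± 3.95 and 14.6 ± 4.99 (adjusted p = 0.937). *Myrip*, like *Exph5* an effector of Rab27, fell from 26.9 ± 5.13 to 11.5 ± 4.40 (log2 fold change -1.21, adjusted p = 0.00528), and this call was lost with a pseudocount of 10 and with equal library totals. Markers of keratinocytes, the cells in which *Exph5* is best known, and of other epithelium summed to no more than 16.9 in WT muscles and to between 18.9 and 39.95 in *mdx5cv* muscles, and none of the 8 passed the filter on low values.

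The outer dense fiber and EF-hand list around *Odf3l2* and *Efcab6* had no gene called among 7 tested. *Park7*, whose product binds the Efcab6 protein, was at 2409 ± 179 in WT and 1595 ± 283 in *mdx5cv* (log2 fold change -0.61, limma adjusted p = 0.00264). It was under the fold threshold, and with equal library totals, which moved the median of all genes from 0.00 to 0.36, it stood at -0.25.

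Genes of motile cilia and sperm tails had few reads in both groups. Of 33 genes matched, 3 were tested and none was called, and 7 had no read in any muscle. Male germ cell markers summed to at most 2.29 in WT muscles and 3.20 in *mdx5cv* muscles, and *Prm2*, *Tnp1*, *Tnp2* and *Acrv1* had no read at all.

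Other cell types that a whole muscle holds differed between the groups as well. Fiber markers summed to between 1183980 and 1412630 in WT and between 839704 and 1275910 in *mdx5cv* muscles, with 1 of 12 (*Myh2*) called lower, a call that was lost with equal library totals, without a variance trend, by DESeq2 and without WT replicate 1 or 4 or *mdx5cv* replicate 1. Regenerating-fiber markers rose in 6 of 6, from sums of 118 to 143 in WT to 2175 to 8502 in *mdx5cv* muscles. Adipocyte markers summed to between 961 and 1597 in WT and between 480.3 and 718 in *mdx5cv* muscles, with 3 of 6 called lower, and nerve markers to between 503 and 975 and between 310.4 and 501, with 1 of 6 tested called lower. Over all genes tested, 10.3% were called higher and 3.27% lower. The part of cell makeup in the values of the 8 genes was not tested.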

How the data were processed

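TA muscles of 4 WT and 4 *mdx5cv* male mice were grouped by their labels, and since these do not say that each came from a separate mouse, p-values measure the spread between these samples. Per the labels and the submitters' processing notes, RNA was isolated with Trizol and libraries were made with a stranded total RNA kit. The notes list Trim Galore 0.6.4, STAR 2.6.0c, SAMtools 1.9, featureCounts, DESeq2 1.26.0, R 3.6.2 and the mm10 build. Whether the counting used strand was not given in the sources used here. The authors deposited, for all genes and without a filter, a normalized signal in which each muscle's read counts were scaled by its size factor. Whole reads were recovered for 100% of values (tolerance 0.01).

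The members of the gene set and all lists were chosen with earlier results of these data known. Of the gene IDs, 55141 were matched to GENCODE M21 (GRCm38). The test was limma 3.58.1 under R 4.3.3 (lmFit, then eBayes with trend, two-sided, adjusted by Benjamini-Hochberg) on log2(normalized count + 1) over genes with a mean of at least 10. This scale understates the change of genes with few reads. The 8 genes were described without a test. The named genes were the 8, *Dmd*, the nearest tested gene on each side of each and every called neighbour within 500 kb, up to 4 called genes per list, and the 10 other genes with the widest gap; *Irs1*, *Insr*, *Prkcq*, *Nedd4*, *Park7*, *Rab27a*, *Slc15a2* and *Slc15a4* were named after their values were seen, as were the single markers. The values of 1 list gene are not reported here. Exact 95% intervals used the read counts. Alternatives were other pseudocounts, filters, factors, windows and tools (edgeR 4.0.16 and DESeq2 1.42.0 on the recovered reads), the replicate block and each replicate left out. Scripts were tested on simulated data. Python 3.11.15 served the other steps.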

Additional observations from a re-analysis of the deposited data

Results flagged for a closer look

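Among 15 sets of 4 values, made of the 8 genes in the WT and in the *mdx5cv* muscles, with the *Cblb* values in *mdx5cv* left out because all are 0, 2 had 1 value far from the others, where chance flags about 1 set in 20, or 0.75 of 15. On log2(normalized count + 1), *Cblb* in WT replicate 1 was 8.115 against 8.45 to 8.51 in the other WT muscles, which is a normalized count of 276. *Exph5* in *mdx5cv* replicate 2 was 0 against 0.847 to 0.946 in the other *mdx5cv* muscles, which is the difference between no read and 1 read. The rate of 1 in 20 need not hold for sets with so few reads, so nothing is read from the number of sets flagged.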

How the results depend on the processing

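The log2 difference of each of the 8 genes was negative in every alternative, from -11.70 to -5.10 for *Cblb* and from -3.26 to -2.74 for *Efcab6*. With 10 or more normalized counts required of all muscles, *Efcab6* was the only one of the 8 left among 11784 genes. Without a filter on low values, 2202 genes were higher and 2 list genes were lower. With at least 10 in every muscle, 729 genes were higher and 275 lower, 5 neighbours were higher, and 7 list genes were higher and 0 lower. With equal totals, 2256 genes were higher and 210 lower, 17 neighbours were higher and 0 list genes were lower. With a pseudocount of 10, 0 list genes were lower. In windows of 250 and 1000 kb, 3 and 17 neighbours were higher and 3 and 4 were lower. Leaving out each replicate in turn gave 1216 to 1470 genes higher, 379 to 521 lower, 8 to 11 neighbours higher, 2 to 3 lower, 12 to 14 list genes higher and 1 lower. Against 1414 genes higher, edgeR called 1457 and DESeq2 1916. The replicate block gave 1428 genes higher and 454 lower, 10 neighbours higher and 14 list genes higher, *Slc15a2* among them (adjusted p = 0.0443). The deviations of same-numbered muscles correlated at 0.0501, 0.0309, 0.0722 and 0.146, and not every muscle correlated best with its own number, so the numbers were not taken as a pairing. At this depth, *mdx5cv* levels under about 1 normalized count rest on single reads. Apart from the values above, the cause of these shifts was not tested.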

Other observations

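*Slc15a2*, a peptide transporter related to *Slc15a5*, was uneven within both groups, and it was singled out after its values were seen. Its normalized count was 150.1, 3.29, 4.42 and 9.53 in WT replicates 1 to 4 and 98.2, 79.2, 115 and 10.4 in *mdx5cv* replicates 1 to 4. WT replicate 1 stood above every other muscle and *mdx5cv* replicate 4 lay near the lower WT muscles, so the groups overlapped, and the limma adjusted p was 0.112. Without WT replicate 1 it was 0.00415 and without *mdx5cv* replicate 4 it was 0.0335, and over all alternatives the adjusted p ran from 0.00415 to 0.691 and the log2 fold change from 0.86 to 3.19.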
